A study of Mus musculus with 6 samples.

Results

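The Myc, Max and Mxi1 network is a family of transcription factors that pair through a basic helix-loop-helix leucine zipper, and its 10 genes Myc, Mycn, Max, Mxi1, Mxd1, Mxd3, Mxd4, Mnt, Mlx and Mlxip were followed here in mouse stromal cells. They are 10 of 35968 annotated genes found in the deposited tables, and 9 of them were among the 13221 genes with enough counts to be tested. Mycn, with 1 count in a single library, was not tested. The set was chosen by gene name, and it was selected on a measured value, the rise of Mxi1 in co-culture. For that reason the gene and transcript values of Mxi1 are given as a description, without a test.

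Max is the shared partner of the network. Myc and Max dimers bind E-box DNA and activate genes for growth, ribosome production and cell division, whereas dimers of Max with Mxi1, the other Mxd proteins or Mnt bind similar DNA and recruit the Sin3 and histone deacetylase corepressor. Mlx pairs with Mlxip, also called MondoA, in a glucose-sensing branch of the network, and it can also pair with some Mxd proteins and with Mnt.

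The transcriptome was sequenced in MS-5 cells, a mouse bone marrow stromal line that maintains haematopoiesis in culture. Cells were grown alone (MO1, MO2 and MO3) or for 24 hr under SKM-1 cells, a human acute myeloid leukaemia (AML) line, at 4 AML cells per stromal cell (MC1, MC2 and MC3). The study sequenced both groups in search of how MS-5 cells come to secrete acetate in co-culture. Both groups were kept in the same RPMI medium with serum, no genetic change is named for either, and the model is a single mouse line with a single human AML line. RNA of the co-cultured MS-5 cells was taken after they had been parted from the SKM-1 cells, and reads were counted against mouse transcripts.

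Total estimated counts were 23978881 to 27182453 per library in MS-5 only against 26258451 to 35694987 in co-culture. All 12 stromal markers, among them Col1a1, Fn1, Sparc and Vim, were above 0 in each library, with summed levels of 13530 to 15096 CPM in MS-5 only against 15275 to 17781 CPM in co-culture. CPM values are counts scaled to a common library size after TMM normalization. The 20 leukocyte markers summed to 77.6, 92.9 and 94.9 CPM in MS-5 only and to 134, 434 and 137 CPM in MC1, MC2 and MC3. MC2 thus had the highest leukocyte signal. In such bulk libraries, more or fewer cells of a type and more or less RNA per cell cannot be told apart. Vav1 was at 0.0399, 0 and 0 CPM in MS-5 only and at 1.19, 6.81 and 1.60 CPM in co-culture, and Irf8 was at 0 in each MS-5 only library and at 1.40, 7.93 and 2.15 CPM in co-culture. In MS-5 only 2 to 4 of the 20 markers were at 0, and in co-culture 0 to 2 were. MO2 and MC3 stood apart in another way. Mitochondrial genes held 6.07% and 5.92% of their counts, against 10.6% to 13.2% in the other 4 libraries, and they had counts for 65170 and 66456 transcripts against 51533 to 57350.

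Mxi1 (chromosome 19, 53310518 to 53375810, plus strand, GRCm38) has alternative first exons, so that the repressor it encodes can begin with different amino acids before a shared helix-loop-helix body. The transcript Mxi1-201 starts 18895 bases before Mxi1-203. Its coding region holds 885 bases, of which 274 lie in the first coding exon, and that of Mxi1-203 holds 684 bases, of which 73 lie in the first coding exon. Both share the last 611 coding bases. The first coding exon of each is shown because it is the part that tells these transcripts apart. Capitals mark the ATG at its start and the first 20 bases of the shared second exon at its end.
Mxi1-201: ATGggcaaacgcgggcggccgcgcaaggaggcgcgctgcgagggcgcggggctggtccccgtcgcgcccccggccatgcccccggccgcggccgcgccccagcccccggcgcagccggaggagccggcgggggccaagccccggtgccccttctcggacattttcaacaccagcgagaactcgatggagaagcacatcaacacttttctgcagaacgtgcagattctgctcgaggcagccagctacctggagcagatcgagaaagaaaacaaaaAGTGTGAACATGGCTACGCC
Mxi1-203: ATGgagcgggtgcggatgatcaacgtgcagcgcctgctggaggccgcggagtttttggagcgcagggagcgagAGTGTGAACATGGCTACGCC

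The 250 bases before the RefSeq start sites of Mxi1 (GRCm38.p6, plus strand) are shown for the upstream start at 53310506 and the downstream start at 53329413, since the levels of their transcripts are compared next. Capitals mark ACGTG, the core that E-boxes of the form CACGTG share with hypoxia response elements.
Mxi1 upstream start, chr19:53310256-53310505: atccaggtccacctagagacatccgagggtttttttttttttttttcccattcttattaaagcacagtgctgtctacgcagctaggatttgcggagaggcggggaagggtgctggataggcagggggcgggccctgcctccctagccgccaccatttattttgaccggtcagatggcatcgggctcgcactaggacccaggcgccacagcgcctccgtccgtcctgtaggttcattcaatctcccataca
Mxi1 downstream start, chr19:53329163-53329412: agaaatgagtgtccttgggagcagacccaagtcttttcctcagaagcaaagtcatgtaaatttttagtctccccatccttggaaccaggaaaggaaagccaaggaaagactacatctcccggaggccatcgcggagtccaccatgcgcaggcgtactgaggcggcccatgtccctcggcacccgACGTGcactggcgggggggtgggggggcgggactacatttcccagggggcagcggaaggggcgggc
Both strands were searched. The upstream window held no CACGTG, and it had no match to ACGTG or to the related motif GCGTG. The downstream window held 1 ACGTG, which lay 66 bases before the start. Another RefSeq start, at 53329695, had 1 ACGTG at 25 bases before it. Among 32851 RefSeq promoter windows of this length, 6.02% held CACGTG, 16.6% held ACGTG and 28.2% held GCGTG, and each CACGTG also counts as ACGTG on both strands. RefSeq windows were matched for 9 of the 10 genes, with 11 windows in all, and CACGTG was found in 3 of them. It lay 40 bases before the start of Mlx, 123 bases before that of Mnt and 219 bases before that of Mxd4. Myc had no entry.

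Mxi1 was at 26.2, 20.0 and 22.8 CPM in MO1, MO2 and MO3 and at 71.1, 55.9 and 54.3 CPM in MC1, MC2 and MC3. Each co-culture library lay above each MS-5 only library, which is the pattern that brought the gene in. The mean went from 23.0 ± 3.10 CPM (SD, n = 3) to 60.4 ± 9.29 CPM (SD, n = 3), a 2.63-fold difference in the fit (log2 fold change 1.40, SE 0.17). Without MC2, the library with the highest leukocyte signal, the log2 fold change was 1.44.

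**Figure D1:**
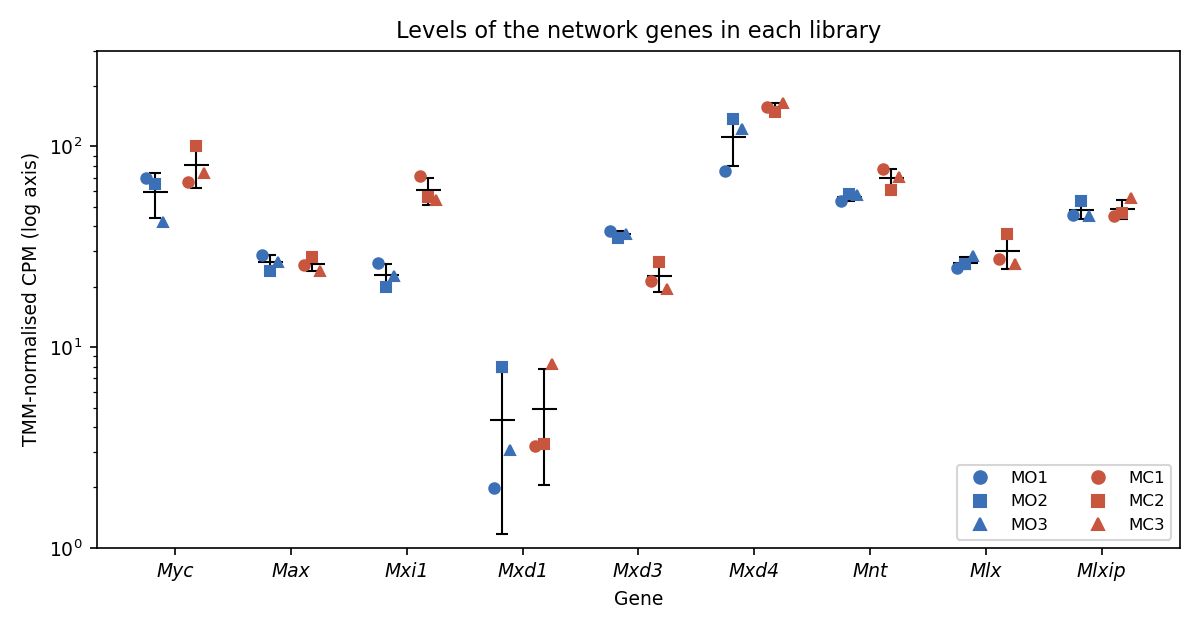
Normalized level (CPM, logarithmic axis) of the 9 tested network genes in each library of MS-5 only and co-culture, with a point for each library and black bars for mean ± SD (n = 3). Mxi1 sits at 20.0 to 26.2 CPM in MS-5 only and at 54.3 to 71.1 CPM in co-culture, Mxd3 sits lower in co-culture, and the points of Myc, Max, Mxd1, Mlx and Mlxip overlap between groups.

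The transcripts from the upstream start (Mxi1-201 and Mxi1-208) had a summed level of 2.46, 4.42 and 2.78 TPM in MS-5 only and of 18.7, 12.6 and 20.7 TPM in co-culture. TPM is the deposited unit scaled by transcript length, in which different transcripts can be compared. Their mean was 3.22 ± 1.05 TPM (SD, n = 3) in MS-5 only against 17.3 ± 4.19 TPM (SD, n = 3) in co-culture, 5.38 times as high. The groups did not overlap. Nearly all of this class was Mxi1-201, with 2.22, 4.04 and 2.78 TPM in MS-5 only against 17.0, 12.1 and 19.4 TPM in co-culture.

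The 6 transcripts from the downstream start had a summed level of 11.1, 12.4 and 10.5 TPM in MS-5 only and of 19.9, 14.2 and 27.2 TPM in co-culture, 1.80 times as high on the means. Here too the co-culture libraries lay above, and MC2 was the closest to MS-5 only. Mxi1-203, the leading transcript of MS-5 only, was at 9.62, 9.03 and 6.61 TPM there and at 11.2, 10.9 and 14.0 TPM in co-culture. Its mean was 1.43 times as high, against 1.80 for the class, so the other downstream transcripts held part of the rise. Most of these begin their coding region of 576 bases in the second exon, and their levels were uneven. Mxi1-206 was at 0.717, 3.10 and 3.59 TPM in MS-5 only and at 4.02, 2.22 and 8.74 TPM in co-culture. Mxi1-205 was at 0.706, 0 and 0 TPM in MS-5 only and at 4.44, 0.793 and 3.05 TPM in co-culture. The rest were at most at 1.21 TPM in a library.

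The upstream transcripts held 18.1%, 25.9% and 20.9% of the Mxi1 TPM in MS-5 only against 48.3%, 46.3% and 43.2% in co-culture. They held 60.6% of the rise of the mean Mxi1 TPM. The share thus differed by 24.3 percentage points of TPM, and by 27.9 percentage points when estimated counts were used. Reads are divided among transcripts that share most of their sequence by an estimate, and the error of that division was not analysed here. A small gene of the other strand, Gm10197, shares 194 exon bases with Mxi1.

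**Figure D2:**
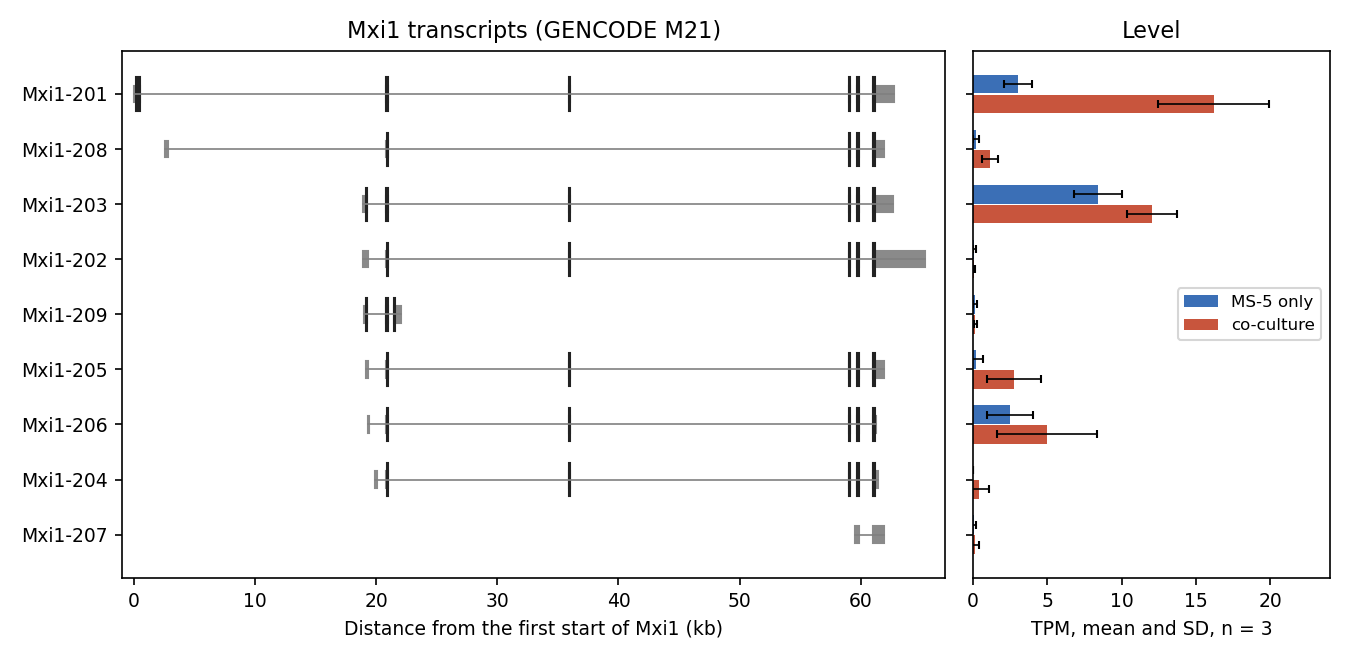
Exons of the Mxi1 transcripts drawn to scale as distance from the first start of the gene (kilobases), coding parts in black and taller, the rest in grey, beside the mean TPM of each transcript in MS-5 only (blue) and co-culture (red) with SD bars (n = 3). The first exon of Mxi1-201 lies 18895 bases before that of Mxi1-203, and its mean level goes from 3.01 to 16.2 TPM while that of Mxi1-203 is 1.43 times as high in co-culture.

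**Figure D3:**
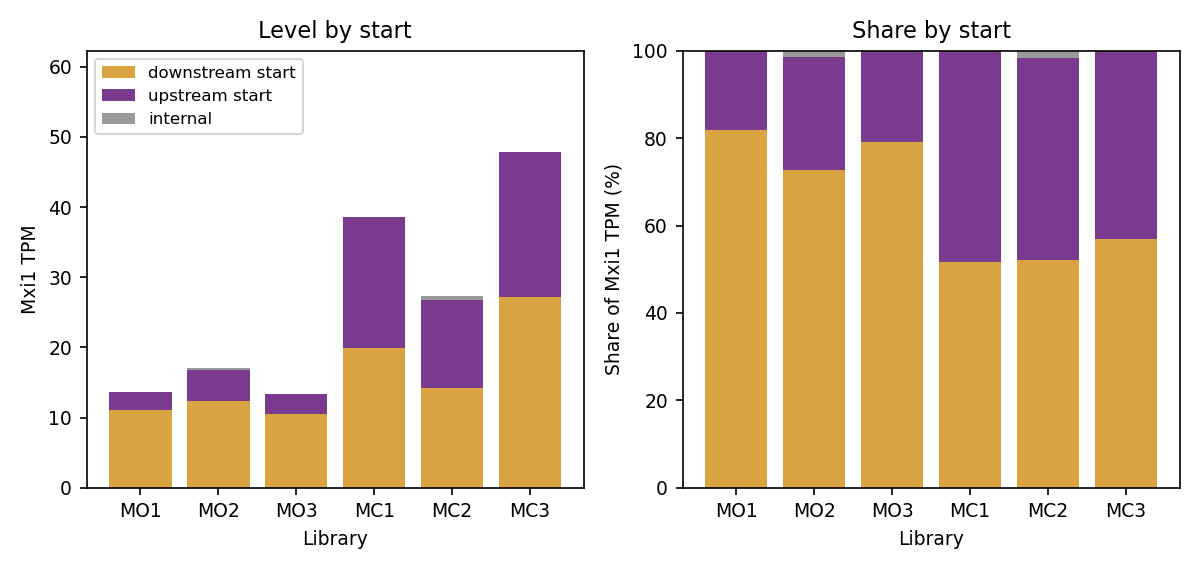
Stacked bars of the TPM of upstream-start, downstream-start and internal (retained intron) transcripts of Mxi1 in each library, as levels on the left and as percent of the Mxi1 TPM on the right. The upstream share is 18.1% to 25.9% in MS-5 only against 43.2% to 48.3% in co-culture.

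Of the 13221 genes tested, 4.38% passed, 3.71% as higher and 0.666% as lower in co-culture. Among the 8 tested members other than Mxi1, 0 were called higher and 1 was called lower, with a median log2 fold change of 0.18 against -0.02 over all genes tested. For 2 of these 8, Mxd4 and Mnt, all co-culture libraries lay above all MS-5 only libraries in CPM, and for 1, Mxd3, they lay below. In TPM the groups overlapped for Mxd4 and Mnt. Their leading transcripts Mxd4-201 and Mnt-201 were at 40.0 and 14.1 TPM in MC2 against 56.0 and 21.3 TPM in MO2. At an unadjusted p under 0.05, 1 of the 8, Mxd3, passed, against 14.3% of all genes tested, and Mxd3 was also the 1 member among them called by DESeq2's Wald test. For 11.6% of all genes tested the co-culture libraries lay above in CPM, and for 9.60% they lay below.

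Mxd3, another Mxd repressor and one known from cells in S phase, was the member called lower (adjusted p under 0.1). The gene (chromosome 13, 55325168 to 55329823, minus strand) was at 37.9, 34.8 and 36.8 CPM in MS-5 only and at 21.4, 26.5 and 19.6 CPM in co-culture. Each co-culture library lay below each MS-5 only library, and the means were 36.5 ± 1.55 and 22.5 ± 3.62 CPM (SD, n = 3 each). Mxd3 fell by 0.70 on the log2 scale (SE 0.15, edgeR adjusted p = 0.0889). Mxd3-201 held 97.7% of the gene's mean TPM share in MS-5 only against 98.1% in co-culture, so that a single transcript carried nearly all of its level. The call was lost without any 1 of the 6 libraries (adjusted p from 0.11 to 0.30) with limma on log2(TPM + 0.5) (adjusted p = 0.31), without a filter on low counts and with an offset for the effective gene lengths (both adjusted p = 0.11), and its direction was kept in each. Prelid1, on the other strand, shares 105 exon bases with Mxd3.

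Mxd4 (chromosome 5, 34173883 to 34187720, minus strand), a further Mxd repressor, was at 75.9, 137 and 123 CPM in MS-5 only and at 158, 148 and 164 CPM in co-culture. MO1 was far below the other libraries, and the nearest libraries of the 2 groups, MO2 and MC2, were close. The log2 fold change was 0.49 (SE 0.23, adjusted p = 0.417), which did not pass the test. Without MO1 it was 0.30, and over the other libraries left out it went up to 0.65, without MO2. Gm42846, on the other strand, shares 514 exon bases with Mxd4.

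Mnt (chromosome 11, 74830920 to 74845725, plus strand), a repressor that is present in dividing and resting cells alike, was at 53.4, 57.9 and 57.4 CPM in MS-5 only and at 77.1, 60.9 and 70.2 CPM in co-culture. MC2 lay just above the MS-5 only libraries. The log2 fold change was 0.30 (SE 0.13, adjusted p = 0.381), which did not pass. Mnt passed once MO2 and MC3 were given their own covariate (adjusted p = 0.083). In that fit 13.9% of all genes tested passed as higher and 16.4% as lower. Mnt was not called in any fit that lacked this covariate.

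Mxd1 (chromosome 6, 86647042 to 86669161, minus strand), a repressor known to rise as blood and skin cells mature, was at 2.00, 7.96 and 3.08 CPM in MS-5 only and at 3.23, 3.28 and 8.21 CPM in co-culture. Its high values were those of MO2 and MC3, in both groups, and it had 50 to 282 counts per library. The log2 fold change was 0.17 (SE 0.62, adjusted p = 0.969), and it was negative without MO1, without MO3 or without MC3. With a covariate for MO2 and MC3 it was 0.25 (SE 0.22).

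Myc (chromosome 15, 61985391 to 61990374, plus strand), the activator that gives the network its name, was at 69.7, 65.3 and 42.0 CPM in MS-5 only and at 66.8, 101 and 73.7 CPM in co-culture. The groups overlapped, and the highest value was that of MC2. The log2 fold change was 0.45 (SE 0.25, adjusted p = 0.506), and it was 0.25 both without MC2 and without MO3. Mycn, the neural and embryonic relative of Myc, had 1 count in MC2 and 0 in the other libraries.

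The excess of MC2 lay in the transcripts Myc-207 and Myc-208, which are annotated with coding bases alone and are 1365 and 1362 bases long. They held 4.44%, 6.30% and 0.00% of the estimated Myc counts in MO1, MO2 and MO3 and 15.7%, 54.7% and 11.8% in MC1, MC2 and MC3. MC2 was also the library with the highest leukocyte signal, at 434 CPM. The other 6 Myc transcripts were at 66.6, 61.2 and 42.0 CPM in MS-5 only and at 56.3, 45.7 and 65.0 CPM in co-culture. Their means were 56.6 ± 13.0 and 55.6 ± 9.68 CPM (SD, n = 3 each). Whether reads of human Myc entered the coding transcripts was not tested.

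Max (chromosome 12, 76937269 to 76962201, minus strand), the common partner, was at 28.7, 24.0 and 26.7 CPM in MS-5 only and at 25.6, 28.2 and 24.0 CPM in co-culture. The groups overlapped, with a log2 fold change of -0.03 (SE 0.14, adjusted p = 0.981). The sign was positive in 6 of 18 alternative analyses.

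Mlx (chromosome 11, 101087277 to 101092207, plus strand) was at 24.7, 26.0 and 28.3 CPM in MS-5 only and at 27.6, 36.5 and 26.0 CPM in co-culture, with MC2 above the rest. Its log2 fold change was 0.19 (SE 0.17, adjusted p = 0.737), and 0.02 without MC2. Psmc3ip, on the other strand, shares 385 exon bases with Mlx. Gm15747, likewise on the other strand, shares 267 exon bases with Mlxip. Mlxip (chromosome 5, 123394798 to 123457932, plus strand), the glucose-sensing partner of Mlx, was at 45.7, 53.8 and 45.1 CPM in MS-5 only and at 44.8, 46.6 and 55.2 CPM in co-culture, with MO2 and MC3 highest (log2 fold change 0.02, SE 0.14, adjusted p = 0.988).

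Among the transcripts of the other members, Mxd4-201 held 93.4% of the mean TPM share of Mxd4 in MS-5 only against 92.0% in co-culture, Mnt-201 held 80.8% of Mnt against 88.9%, Mlxip-201 held 84.5% of Mlxip against 78.6%, and Max-201 held 59.2% of Max against 54.9%. For these genes the same transcript thus led in both groups. Mlx was spread over several transcripts, and its short non-coding transcripts Mlx-204 and Mlx-206 were highest in MC2. Mlx-206 was at 5.97, 12.6 and 8.64 TPM in MS-5 only and at 10.6, 19.9 and 17.9 TPM in co-culture.

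**Figure D4:**
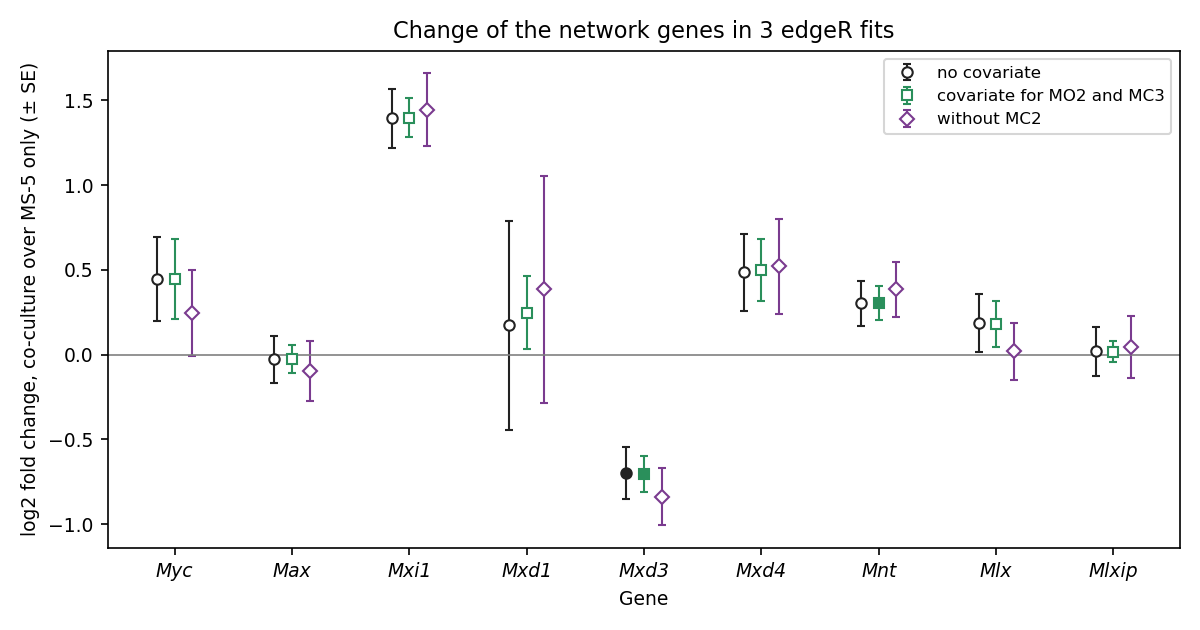
Log2 fold change of co-culture over MS-5 only for each member with enough counts, in 3 edgeR fits (no covariate, a covariate for MO2 and MC3, and without MC2), with SE bars; filled points have an adjusted p under 0.1 and Mxi1 is drawn open because its rise chose the set. Mxd3 is filled at -0.70 without a covariate and with it, Mnt is filled only with the covariate, and Myc and Mlx are lower without MC2 (0.25 and 0.02).

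Of 3 relatives, Mga, a Max partner that also binds T-box sites, was at 34.8, 62.4 and 31.9 CPM in MS-5 only and at 31.6, 33.1 and 54.6 CPM in co-culture. The high values were again those of MO2 and MC3 (log2 fold change -0.11, SE 0.33, adjusted p = 0.960). Mycl had at most 1 count and Mlxipl, also called ChREBP, at most 11 counts in a library, and neither was tested.

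Per length, the order of the mean levels in MS-5 only was Myc (42.8 ± 20.2 TPM), Mxd4 (40.5 ± 21.1), Mxd3 (39.7 ± 8.91), Mlx (34.7 ± 10.2), Max (24.8 ± 6.39), Mnt (19.1 ± 4.75), Mxi1 (14.7 ± 2.09), Mlxip (9.91 ± 5.45) and Mxd1 (1.66 ± 1.74; SD, n = 3 each). In co-culture the order was Myc (65.9 ± 20.3 TPM), Mxd4 (55.8 ± 18.1), Mlx (45.2 ± 11.7), Mxi1 (37.9 ± 10.3), Max (25.8 ± 5.45), Mxd3 (24.1 ± 3.98), Mnt (22.2 ± 7.88), Mlxip (10.4 ± 5.63) and Mxd1 (1.80 ± 1.39). In both orders each step between neighbours was smaller than the SDs of the pair added together, except that from Mlxip to Mxd1. Mxi1 thus went from below to above the mean level of Max, of Mxd3 and of Mnt, values that include the rise it was chosen for.

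The repressors other than Mxi1 (Mxd1, Mxd3, Mxd4 and Mnt) summed to 74.8, 142 and 86.3 TPM in MS-5 only and to 91.1, 82.3 and 138 TPM in co-culture. MO2 and MC3 were highest, and the groups overlapped (100.9 ± 35.8 and 103.8 ± 30.0 TPM, SD, n = 3 each). Mxi1 made up 15.4%, 10.7% and 13.4% of the repressor TPM with Mxi1 included in MS-5 only against 29.7%, 24.9% and 25.8% in co-culture, whereas Mxd3 made up 40.2%, 31.4% and 33.8% and then 15.6%, 21.7% and 15.1%. Myc with Mycn was at 40.6, 64.0 and 23.7 TPM in MS-5 only and at 42.8, 73.7 and 81.0 TPM in co-culture, and these values overlapped as well. Mlx with Mlxip was at 34.4, 62.5 and 37.0 TPM and at 39.1, 60.3 and 67.5 TPM.

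The genes whose profile over the 6 libraries was most like that of Mxi1, by the root mean square difference of centred log2 CPM among 9075 genes with a mean of at least 10 CPM, were Slc2a1 (0.104), Gys1 (0.111), P4ha1 (0.115), Pfkl (0.132) and Cntnap5a (0.140). Slc2a1 encodes a glucose transporter, Gys1 glycogen synthase, P4ha1 a collagen prolyl hydroxylase subunit and Pfkl a phosphofructokinase. Slc2a1 was at 43.9, 38.3 and 45.0 CPM in MS-5 only and at 134, 113 and 92.2 CPM in co-culture. The likeness includes the difference between groups by which Mxi1 was picked.

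Of the 19 Sin3 and histone deacetylase corepressor genes, through which Mxd proteins act, 0 passed edgeR's test in either direction (1 had an unadjusted p under 0.05, against 14.3% of all genes, and DESeq2's Wald test called 1 as lower, against 2.72%), with a median log2 fold change of -0.01 (-0.16 without MO3). Once the fit held the MO2 and MC3 covariate, 3 of the 19 passed as higher and 4 as lower, against 13.9% and 16.4% of all genes tested in that fit. Brms1l had the lowest value among those above 10 CPM (-0.44, adjusted p = 0.150) and Ncor1 the highest (0.43, adjusted p = 0.831). Ncor1 was at 13.2, 35.5 and 12.2 CPM in MS-5 only and at 18.6, 20.9 and 42.5 CPM in co-culture, highest in MO2 and MC3. Of the 19 coactivator and stability genes of Myc, 0 passed edgeR's test (1 had an unadjusted p under 0.05, against 14.3% of all genes, and DESeq2 called 1 as lower, against 2.72%), with a median of -0.16, which was -0.33 without MO3, -0.06 without MO2 and -0.09 without MC2. With the covariate, 1 of the 19 passed as higher and 7 as lower, beside the same 13.9% and 16.4% of all genes. Among them Aurka, a mitotic kinase that can stabilize Myc proteins, was at 124, 87.7 and 105 CPM in MS-5 only and at 64.9, 72.2 and 58.0 CPM in co-culture (log2 fold change -0.70, adjusted p = 0.11), and Bin1 had a log2 fold change of 0.26 (adjusted p = 0.376).

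The 34 ribosome biogenesis genes that Myc is known to activate had a median log2 fold change of -0.48. Of them 33 were negative, against 6945 of all 13221 genes tested, and 0 passed edgeR's test (7 had an unadjusted p under 0.05, against 14.3% of all genes, and DESeq2 called 3 as lower, against 2.72%). Without MO1 the median was -0.23, with 30 negative. For 8 of the 34 the co-culture libraries lay below the MS-5 only libraries, as did 9.60% of all genes tested. Grwd1, a ribosome assembly factor, was at 83.3, 41.3 and 56.0 CPM in MS-5 only and at 34.9, 32.4 and 21.4 CPM in co-culture (log2 fold change -1.03, adjusted p = 0.175), and Npm1 had a log2 fold change of 0.01 (adjusted p = 0.994). Values in MO2 and MC3 were the lowest of their groups for both. With a covariate for MO2 and MC3, 21 of the 34 passed as lower, against 16.4% of all genes.

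The 25 Myc-activated metabolism and growth genes had a median log2 fold change of -0.35. Of them 21 were negative, against 6945 of all 13221 genes tested, and 0 passed edgeR's test (3 had an unadjusted p under 0.05, against 14.3% of all genes, and DESeq2 called 1 as higher and 1 as lower, against 6.90% and 2.72%). Without MO1 the median was -0.13, with 16 negative, and without MC3 it was -0.19. Odc1, the first enzyme of polyamine synthesis, was at 430, 180 and 361 CPM in MS-5 only and at 168, 194 and 92.1 CPM in co-culture (log2 fold change -1.10, adjusted p = 0.275). Ldha, which makes lactate and is also on the HIF list, had a log2 fold change of 1.09 (adjusted p = 0.273). Both genes were lowest of their groups in MO2 and MC3. With the covariate, 15 of the 25 passed as lower and 1 as higher, against 16.4% and 13.9% of all genes.

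Of the 16 Myc-activated cell cycle genes, 1 fell and 0 rose, against 0.666% and 3.71% of all genes tested, with a median log2 fold change of -0.40 (-0.26 without MO1). At an unadjusted p under 0.05, 5 of the 16 passed, against 14.3% of all genes, and for 4 the co-culture libraries lay below the MS-5 only libraries, against 9.60%. The gene that fell was Plk4, the kinase that starts centriole duplication, at 23.8, 22.4 and 26.4 CPM in MS-5 only and at 13.7, 16.3 and 16.4 CPM in co-culture (log2 fold change -0.65, SE 0.15, adjusted p = 0.091), a call that was lost without any 1 of the 6 libraries, without a filter and with the length offset. With the covariate, 10 of the 16 passed as lower and 1 as higher, against 16.4% and 13.9% of all genes. DESeq2 called 3 of the 16 as lower, against 2.72% of all genes.

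Of the 14 tested genes that Myc is known to repress, 1 rose and 0 fell, against 3.71% and 0.666% of all genes tested, with a median log2 fold change of 0.11. The median was 0.25, 0.21, 0.19 and 0.23 without MO2, MO3, MC1 and MC2, and 0.01 without MC3. With the covariate 6 of the 14 passed as higher and 2 as lower, against 13.9% and 16.4% of all genes, and DESeq2 called 2 as higher, against 6.90%. The gene that rose was Ndrg1, a stress-response gene that is also on the HIF list, at 197, 156 and 189 CPM in MS-5 only and at 501, 347 and 297 CPM in co-culture (log2 fold change 1.08, SE 0.24, adjusted p = 0.0874). Of the 10 tested targets of Mlx and MondoA, 1 rose and 0 fell, against the same 3.71% and 0.666%, with a median of 0.18. With the covariate 3 of the 10 passed as higher, against 13.9% of all genes, and DESeq2 called 1, against 6.90%. The gene that rose was Hk2, a hexokinase that is likewise on the HIF list, at 20.3, 16.3 and 11.4 CPM in MS-5 only and at 34.3, 36.3 and 32.8 CPM in co-culture (log2 fold change 1.11, SE 0.22, adjusted p = 0.0779). Each of these 2 calls was lost without any 1 library other than MC3, and that of Hk2 also with library size alone and with limma.

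Mxi1 is a known target of the hypoxia-inducible factor HIF, and of 25 tested HIF targets 12 rose and 0 fell, against 3.71% and 0.666% of all genes tested, with a median log2 fold change of 1.08. For 19 of the 25, all co-culture libraries lay above all MS-5 only libraries, as did 11.6% of all genes tested. Bnip3, a mitophagy receptor, was at 23.3, 31.6 and 33.9 CPM in MS-5 only and at 214, 176 and 178 CPM in co-culture (log2 fold change 2.68, SE 0.19, adjusted p = 0.0269), and Pdk1, which restrains pyruvate dehydrogenase, went from 28.9 ± 2.76 to 132 ± 16.0 CPM (log2 fold change 2.19, SE 0.15, adjusted p = 0.0269). The count was 22 of 25 with the covariate (13.9% of all genes) and 19 with DESeq2's Wald test (6.90%). It was 0 without any 1 of the MS-5 only libraries. No gene at all passed there, so those counts cannot tell HIF targets from other genes. Without MC1, MC2 and MC3 it was 4, 6 and 13, among 283, 281 and 549 genes called in all. The list median stayed between 0.92 and 1.17 with a library left out. Blocking on replicate numbers left 5 of the 25, among 444 genes called. The part of HIF in the values of Mxi1 was not tested.

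**Figure D5:**
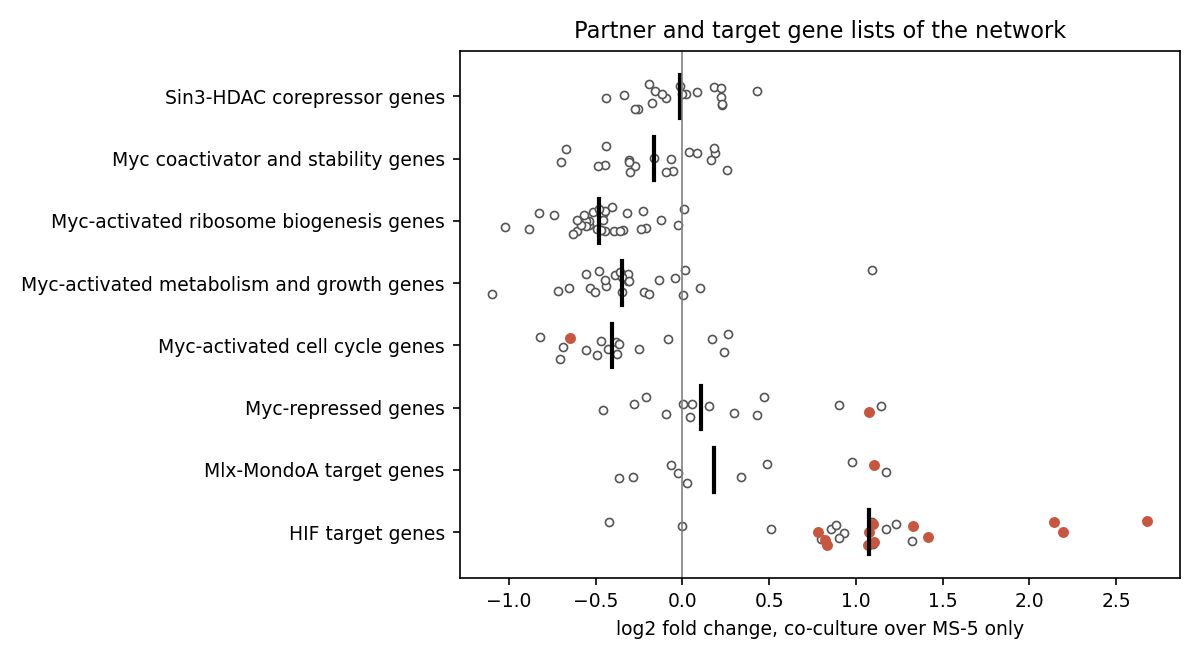
Log2 fold change of co-culture over MS-5 only for each tested gene of the 8 cofactor and target lists, with filled red points for an adjusted p under 0.1 and a bar at the list median. The 3 Myc-activated lists have medians of -0.48, -0.35 and -0.40, and the HIF targets have a median of 1.08 with 12 filled points.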

How the data were processed

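The 6 RNA-seq libraries of MS-5 cells (3 cultured alone, 3 after 24 hr with SKM-1 cells) were assigned to groups and replicate numbers from their labels. Nothing says that they came from separate cultures, so p-values may measure technical spread. The authors quantified reads with kallisto 0.43.0 (per the submitters' processing notes, which also name FastQC 0.11.7, sleuth 0.30.0 and mm10) and deposited, per transcript, estimated counts, not normalized between libraries, and TPM, scaled by effective length. The deposited lengths served for a length offset. Human reads could be counted only where they resembled mouse transcripts.

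Of 118489 transcripts, 116728 matched GENCODE M21 (GRCm38) by identifier with version and by length, and 1761 were left out. The estimated counts of a gene's transcripts were added up, rounded, filtered with filterByExpr, normalized by TMM (factors 0.923 to 1.17) and compared by the quasi-likelihood test of edgeR 4.0.16 in R 4.3.3. P-values were adjusted by the Benjamini-Hochberg method over 13221 genes, at a threshold of 0.1. SE is the log2 fold change over the square root of F. The median log2 fold change of all genes was -0.02. Code was tested on simulated data.

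The members and lists were chosen with earlier results of these data known, and textbook gene lists were used for cofactors and targets. The text names the members, their relatives, the genes of a list past the threshold (at most the 2 highest and 2 lowest where more than 4 passed, otherwise the highest and lowest above a mean of 10 CPM where none did) and the 5 genes most like Mxi1. Kcnq1ot1 was not found. Promoters are from RefSeq. Alternatives were DESeq2 1.42.0 (size factors or Wald test), library size, limma 3.58.1 on log2(TPM + 0.5), with 0.1 and 1 as other pseudocounts, other filters (none, or at least 5 counts in 3 libraries), a length offset, a covariate for MO2 and MC3, a block for the replicate number, and each library left out. No label sets MO2 and MC3 apart, so their covariate rests on the values of these same libraries. An analysis without MC2 and with that covariate was chosen after seeing the data.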

Additional observations from a re-analysis of the deposited data

How the results depend on the processing

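With 579 genes past the threshold in all, the count was 1268 with DESeq2's Wald test, 356 with limma on log2(TPM + 0.5) (506 and 224 at pseudocounts of 0.1 and 1 instead), 3999 with a covariate for MO2 and MC3 (45.9% of them higher, against 84.8%), 3037 without MC2 and with that covariate, and 2 at a threshold of 0.05. It was 0 to 549 with a library left out; edgeR gave 0 without MO1, without MO2 or without MO3, where 1478, 2819 and 1578 genes had an unadjusted p under 0.05. The number of members other than Mxi1 past the threshold, 1, was 0 with limma, without a filter, with the length offset and with any 1 library left out (0 to 0), and 2 (Mxd3 and Mnt) with the covariate, with or without MC2. With the replicate number as a block, 444 genes passed, 1 of them lower, and 0 of these members (Mxd3, adjusted p = 0.31); the calls of Plk4, Ndrg1 and Hk2 were lost and 5 of the 25 HIF targets passed. Same-numbered libraries did not all deviate together (correlations of deviations 0.53, -0.29 and -0.52 for numbers 1, 2 and 3, with MO2 closest to MC3 at 0.73), so the numbers were not taken as pairs. Genes of the 8 cofactor and target lists past the threshold, 13 in the report, were 29 with the Wald test, 5 with the replicate block, 93 with the covariate, 71 without MC2 and with the covariate, and 0 to 14 with a library left out. The log2 fold change of Max turned positive with limma (0.0659, 0.0671 and 0.0645 at pseudocounts of 0.5, 0.1 and 1), with the length offset (0.0781), without MO1 (0.0605) and without MC3 (0.0252), in a range of -0.0975 to 0.0605 with a library left out. That of Mxd1 turned negative without MO1 (-0.135), MO3 (-0.0233) or MC3 (-0.421), in a range of -0.421 to 0.948, and that of Mlxip without MO3 (-0.0303) or MC3 (-0.0778), in a range of -0.0778 to 0.101. Mxi1 ranged from 1.25 to 1.52, Mxd3 from -0.84 to -0.61, Myc from 0.22 to 0.69, Mxd4 from 0.30 to 0.65, Mnt from 0.18 to 0.39 and Mlx from 0.02 to 0.43 over all alternatives. The difference in the upstream share of Mxi1 was 27.9 percentage points from estimated counts and 22.5 to 26.4 with a library left out. The summed TPM of Mxd1, Mxd3, Mxd4 and Mnt differed by 2.90, and by -14.2 to 23.3 with a library left out (-10.2 without MO1, -4.41 without MO3 and -14.2 without MC3). The causes of these shifts were not tested. Mycn, Mycl and Mlxipl had too few counts to be tested at this depth.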
